A study of Homo sapiens with 26 samples.

Results

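AKAP1 null and LARP4 null HEK293T cells were compared with each other, gene by gene, for how strongly each mRNA was enriched on ribosomes labelled at the outer mitochondrial membrane (OMM). The comparison used 8 of the 26 libraries of the series. Each line had 2 lysates, and every lysate gave a library of total RNA (total input) and one of streptavidin-purified RNA (pulldown). The comparison covered 14193 of the 60663 annotated genes, those with a mean of at least 64 reads over the 4 total inputs. OMM enrichment is the log2 ratio of a gene's share of reads in the pulldown to its share in the total input of the same lysate. The difference is the enrichment in AKAP1 null minus that in LARP4 null, so a positive value means more enrichment in AKAP1 null cells. Wild-type libraries were left out, so the comparison does not say which of the 2 lines moved from wild type.

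HEK293T is a human embryonic kidney line. In the study's system the large-subunit ribosomal protein RPL29 carries an AviTag, and a light-activated biotin ligase, LOV-BirA, is anchored in the OMM by the transmembrane domain of OMP25 and expressed from the EF1α promoter. Blue light lets the ligase biotinylate nearby ribosomes, and whole mRNAs held by those ribosomes are pulled down and sequenced. Both knockouts were made with Cas9 and a single guide, sorted as single cells and labelled monoclonal. Whether both lysates of a line came from the same clone is not given in the sources used here, and neither is the cycloheximide treatment of these lines by name. All 8 libraries share the tagged ribosome and the ligase. The lines differ by the gene targeted and also by clone, and these cannot be told apart here.

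Most mitochondrial proteins are encoded in the nucleus and made by cytosolic ribosomes, and a subset of these mRNAs is translated at the mitochondrial surface. Long proteins can reach the surface through their emerging targeting sequence while translation goes on, and mRNAs can also be tethered there by RNA-binding proteins. AKAP1 is an outer-membrane scaffold that anchors protein kinase A and carries RNA-binding domains. LARP4 is a La-related RNA-binding protein that binds poly(A) tails and poly(A)-binding protein.

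The target sites are shown because they define the 2 groups. The coordinates are those of GRCh38, and each run is 21 bases of coding sequence at the guide, read 5′ to 3′ on the coding strand. The AKAP1 site (ENSG00000121057) lies at chr17:57105807-57105827 on the plus strand, in exon 2 of 11 of the GENCODE canonical transcript. The LARP4 site (ENSG00000161813) lies at chr12:50435600-50435620 on the plus strand, in exon 5 of 16.
AKAP1 site: acagacatgagattgcgacca
LARP4 site: gatctaattcttgaagtgtta

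The targeted genes followed the labels. AKAP1 stood at 32.2 and 20.3 CPM (reads scaled to the library total) in the total inputs of AKAP1 null and at 120.5 and 142 CPM in those of LARP4 null. LARP4 stood at 79.3 and 74.0 CPM in LARP4 null and at 216 and 247 CPM in AKAP1 null. Each mRNA was thus lower in both lysates of its own knockout, and neither was absent. The differences in total input were −2.33 ± 0.23 for AKAP1 and 1.59 ± 0.13 for LARP4 on the log2 scale (fitted value ± SE, 2 lysates a line), with adjusted p-values of 0.38 and 0.234 (edgeR quasi-likelihood test, Benjamini-Hochberg over all genes tested).

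The libraries held between 41796253 and 100840544 counts, and the gene with the most reads took at most 1.06% of a library. The 2 lysates of a line did not match equally well. The SD over genes of the change in enrichment from one lysate to the other was 0.29 in AKAP1 null and 0.53 in LARP4 null, and over mitochondrial genes alone it was 0.28 and 0.29. In the LARP4 null total inputs, 24 genes were above 2 CPM in one lysate and under 0.1 CPM in the other, with the pulldowns differing the same way for 24 of them. This count was 3 in AKAP1 null and 6 in wild type, and 0 of these genes were called in the enrichment difference. PTCHD1, for example, was listed at 37.8 CPM in the total input of the first LARP4 null lysate and at 0.0198 CPM in that of the second. The p-values below measure the spread between these lysates, which no label describes as separate cultures.

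The enrichment difference separated mitochondrial mRNAs by the length of the protein they encode. Long mitochondrial enzymes were more enriched in AKAP1 null and short respiratory-chain subunits and other short proteins were more enriched in LARP4 null. In all, 164 genes were higher in AKAP1 null (1.16% of those tested) and 154 were lower (1.09%), 318 in either direction (2.24%), at an adjusted p below 0.05 (edgeR quasi-likelihood test). Every called gene had the same sign in all 4 pairings of an AKAP1 null lysate with a LARP4 null lysate, as did 46.2% of all genes tested. With TMM scaling in place of library totals the split was 198 higher and 116 lower. The counts rested on the lysates kept. They were 79 higher and 5 lower without the first AKAP1 null lysate and 0 and 0 without the second, so every list count given below also became 0 there. They were 853 and 2978 without the first LARP4 null lysate and 499 and 922 without the second. The median difference over all genes was −0.05.

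**Figure D1:**
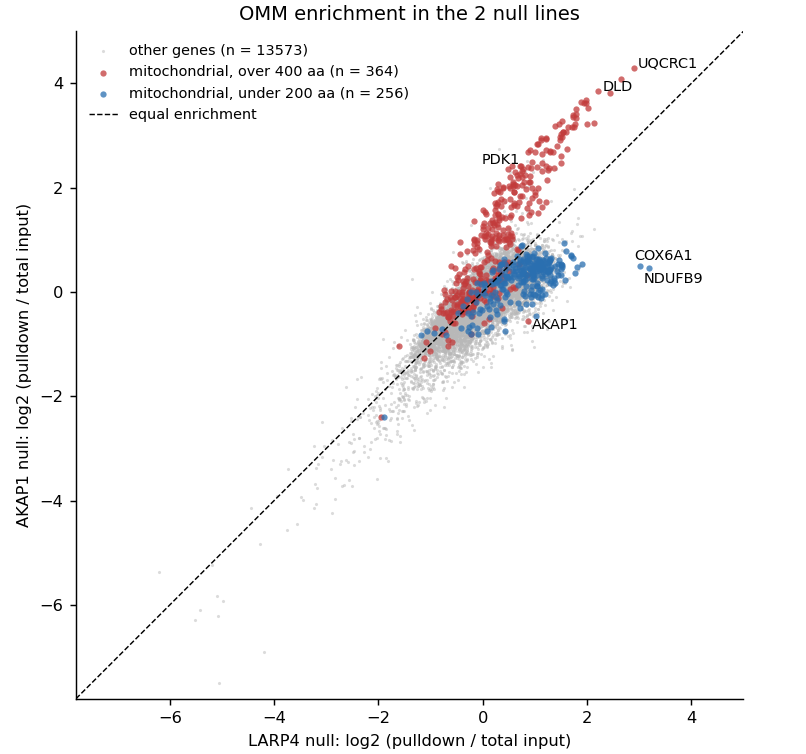
Fitted log2 enrichment (pulldown over total input) of the 14193 genes tested, LARP4 null on the x axis and AKAP1 null on the y axis, one point a gene. Mitochondrial genes that encode over 400 aa (red, 364 genes) lie mostly above the dashed line of equal enrichment, those under 200 aa (blue) mostly below it, and NDUFB9 and COX6A1 lie furthest below.

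Of the 164 genes that were higher in AKAP1 null, 155 (94.5%) were nuclear-encoded mitochondrial genes, against 1024 (7.22%) of the genes tested. They encoded long proteins. None of the 162 protein-coding ones was under 200 aa, 17 were of 200 to 400 aa and 145 were over 400 aa, with a median of 541.5 aa against 478 aa over all protein-coding genes tested. The median enrichment of the 164 genes was 1.89 and 2.26 in the AKAP1 null lysates and 0.64 and 0.67 in the LARP4 null lysates. All 164 were above 0 in both AKAP1 null lysates, and 138 were above 0 in both LARP4 null lysates as well, so most were enriched at the OMM in both lines.

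The 154 genes that were lower in AKAP1 null encoded short proteins. Of the 140 protein-coding ones, 46 mitochondrial and 75 other genes were under 200 aa, 14 were of 200 to 400 aa and 5 were over 400 aa, with a median of 114.5 aa. Only 49 (31.8%) were in the mitochondrial list, which leaves out the inner-membrane micropeptide gene MTLN, and 24 encoded cytosolic ribosomal proteins. None of the 140 came from a single-exon gene, and neither did any of the 162 protein-coding genes that were higher. Single-exon genes were rare among those tested, 266 of the 12218 protein-coding genes and 82 of the 1489 under 200 aa. The counts of 0 were not tested against these shares. The median enrichment of the 154 genes was 0.09 and 0.01 in the AKAP1 null lysates and 1.25 and 1.01 in the LARP4 null lysates. In LARP4 null 149 were above 0 in both lysates, and in AKAP1 null 73 were above 0 and 58 were below 0 in both.

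The change with length was gradual among mitochondrial genes. The median difference was −0.87 for the 58 genes tested under 100 aa, −0.43 for the 198 from 100 up to 200 aa, 0.03 for the 403 of 200 to 400 aa and 0.70 for the 364 over 400 aa. Of these, 28, 18, 2 and 1 were called lower and 0, 0, 16 and 139 were called higher. Among the other protein-coding genes the short ones were also below 0 and the long ones were near 0. Their medians in the same bins were −0.53 (182 genes), −0.25 (1051), −0.03 (2965) and 0.02 (6997), with 29, 46, 12 and 4 lower and 0, 0, 1 and 6 higher. Without the first LARP4 null lysate the last of these bins held 1232 lower and 306 higher genes, and the mitochondrial bin over 400 aa held 16 lower and 225 higher. Without the first AKAP1 null lysate the mitochondrial bins held 0, 2, 0 and 0 lower and 0, 0, 4 and 75 higher genes. Across genes, which are not independent replicates, the difference correlated with log2 protein length at r = 0.67 (Spearman rho 0.72) over 1023 mitochondrial genes and at r = 0.23 (rho 0.17) over 11195 others. All of these points come from the same 8 libraries.

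**Figure D2:**
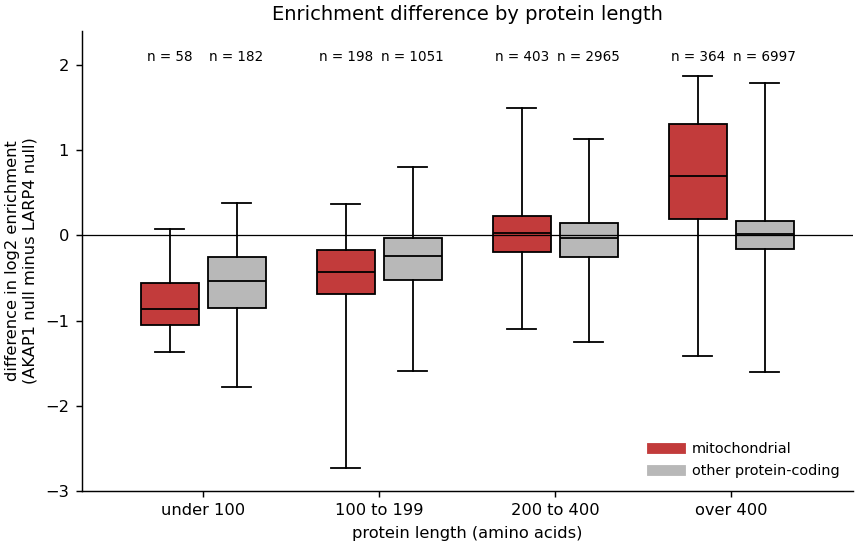
Difference in log2 enrichment (AKAP1 null minus LARP4 null, y axis) by protein length (x axis) for mitochondrial (red) and other protein-coding genes (grey). Boxes show the median and quartiles and whiskers the whole range; the mitochondrial medians run from −0.87 under 100 aa to 0.70 over 400 aa, and the others from −0.53 to 0.02.

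NDUFB9 and COX6A1 showed the largest falls. NDUFB9, an accessory subunit of complex I on chromosome 8, encodes 179 aa in 4 exons. Its enrichment was 0.36 and 0.55 in the AKAP1 null lysates and 3.35 and 3.04 in the LARP4 null lysates. The difference was −2.73 ± 0.17 (SE, adjusted p = 0.00694, edgeR). COX6A1, a subunit of complex IV on chromosome 12, encodes 109 aa in 3 exons. It stood at 0.53 and 0.45 in AKAP1 null and at 3.15 and 2.87 in LARP4 null, a difference of −2.52 ± 0.16 (adjusted p = 0.00694, edgeR). For both genes the contrast lay in the pulldown. NDUFB9 held 110 and 93.0 CPM in the AKAP1 null total inputs and 106 and 106 CPM in those of LARP4 null, against 141 and 136.5 CPM and 1074 and 871 CPM in the pulldowns. COX6A1 held 68.8, 62.1, 69.3 and 60.6 CPM in the same 4 total inputs and 99.5, 85.0, 617 and 442 CPM in the pulldowns.

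The other 8 of the 10 largest falls were −1.78 to −1.47 and were called at adjusted p-values of 0.011 to 0.0282 (edgeR). They were MT2A, a metallothionein that binds zinc and copper, the cytosolic ribosomal protein genes RPL41, RPS21, RPS29 and RPL23A, RNF181, a RING-type ubiquitin ligase, COPS9, the smallest subunit of the COP9 signalosome, and MTLN, a micropeptide of the inner mitochondrial membrane. RPL41, the shortest at 25 aa, stood at −0.70 and −0.78 in AKAP1 null and at 1.03 and 0.87 in LARP4 null. MTLN, with 56 aa in 2 exons, stood at −0.07 and −0.12 in AKAP1 null and at 1.45 and 1.37 in LARP4 null. In 7 of these 8 genes, all but RNF181, both AKAP1 null lysates were below 0 and both LARP4 null lysates were above 0. Ribosomal protein genes and metallothioneins have close copies in the genome that can share reads, so their values carry that uncertainty.

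The 9 largest rises ran from 1.79 to 2.43. HSPD1P1 led at 2.43 ± 0.32 (adjusted p = 0.0159, edgeR). It is a processed pseudogene of HSPD1 with a mean of 87.5 reads in the total inputs and cannot be told apart from misassigned HSPD1 reads. HSPD1 itself, the matrix chaperonin, was higher by 1.71 ± 0.14 with a mean of 97327 reads. PDK1, a kinase that inhibits pyruvate dehydrogenase, stood at 2.15 and 2.56 in AKAP1 null and at 0.38 and 0.58 in LARP4 null, a difference of 1.87 ± 0.19. NNT, the inner-membrane transhydrogenase that makes NADPH, stood at 2.25 and 2.57 against 0.52 and 0.60, a difference of 1.85 ± 0.17. The next were MIPEP (1.84), a matrix processing peptidase, MMUT (1.82), methylmalonyl-CoA mutase, ALDH5A1 (1.82), which breaks down succinate semialdehyde, LARS2 (1.80), the mitochondrial leucyl-tRNA synthetase, CPT2 (1.80), which passes long acyl chains into β-oxidation, and GPAM (1.79), which starts glycerolipid synthesis at the outer membrane. Apart from HSPD1P1, all of these had adjusted p-values of 0.011 to 0.0156 (edgeR).

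**Figure D3:**
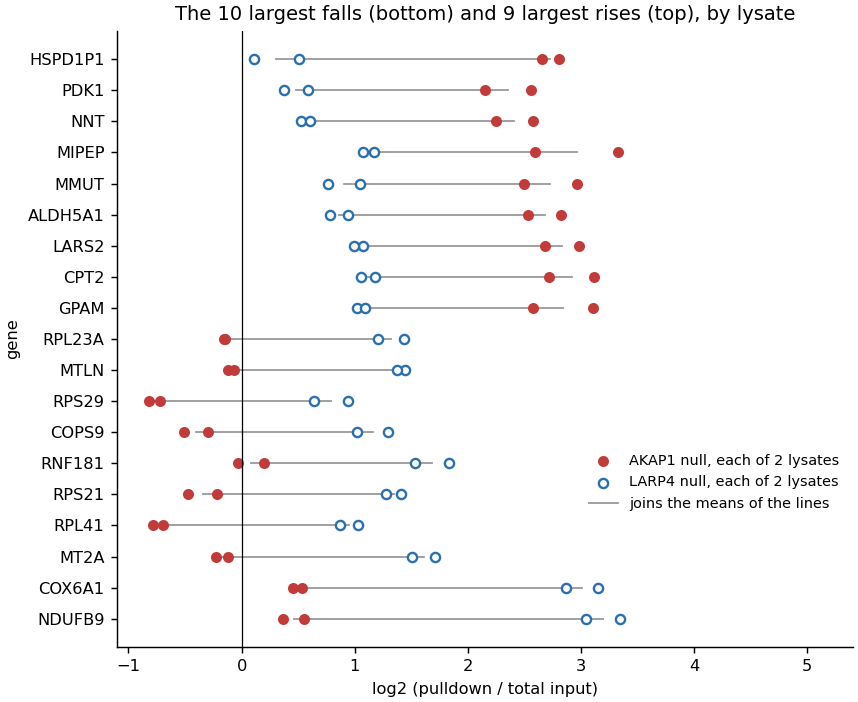
Log2 enrichment (x axis) of the 10 largest falls and the 9 largest rises in each lysate, AKAP1 null as filled red points and LARP4 null as open blue points, with a grey line joining the means of the lines. The genes were chosen as called with one sign in all 4 pairings of lysates, so the lines cannot overlap. NDUFB9 and COX6A1 sit near 3 in LARP4 null and near 0.5 in AKAP1 null.

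Respiratory-chain subunits were among the called genes in both directions. Of the 12 complex IV subunits, 7 fell and 0 rose, with a median of −1.01 and a range of −2.52 to −0.54. Besides COX6A1, COX7A2 (83 aa) fell by 1.37, COX6C (75 aa) fell by 1.35 and COX5B (129 aa) fell by 1.07. Of the 37 complex I subunits 8 fell and 4 rose, with a median of −0.55. NDUFB3 (98 aa), an accessory subunit of the membrane arm, fell by 1.23. Those that rose included NDUFV1 (464 aa, 1.06), a core subunit of the matrix arm, and the accessory subunits NDUFA10 (355 aa, 1.40) and NDUFA9 (377 aa, 1.12). Without the first AKAP1 null lysate 1 subunit each of complexes I and IV was lower and 1 of complex I was higher, whereas without the first LARP4 null lysate 18 of complex I and 12 of complex IV were lower.

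In complex III 3 of 9 subunits fell and 2 rose. UQCRQ (82 aa) and UQCR11 (56 aa) differed by −1.33 and −1.18, while the core proteins UQCRC1 (480 aa) and UQCRC2 (453 aa) differed by 1.40 and 1.48. UQCRC1 was among the mRNAs most enriched at the OMM, with 4.01 and 4.59 in AKAP1 null and 2.88 and 2.92 in LARP4 null. In complex V 4 of 19 fell and 2 rose. ATP5ME (69 aa) and ATP5MC1 (136 aa) differed by −1.09 and −0.99. The catalytic-head subunits ATP5F1A (553 aa) and ATP5F1B (529 aa) differed by 1.73 and 1.55. In complex II only SDHA (664 aa), the flavoprotein, was called (1.53), and SDHB, SDHC and SDHD had values of −0.24, −0.18 and 0.21. Over all genes tested 1.09% were lower and 1.16% higher, with a median of −0.05.

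Small proteins that build or serve these complexes were also lower in AKAP1 null. Of 27 complex IV assembly factors 7 fell and 0 rose (median −0.35), among them the copper chaperone COX17 (63 aa), which stood at −0.78 and −0.70 in AKAP1 null and at 0.44 and 0.41 in LARP4 null (−1.17 ± 0.15). CMC1 differed by −1.18, COX14 by −1.15 and HIGD2A by −1.05. Among 13 twin-cysteine CHCHD proteins of the intermembrane space 4 fell and 0 rose (median −0.85), with CHCHD2 at −1.08. The CHCHD list shares COX17 and CMC1 with the assembly factors. Of 18 complex I assembly factors 1 fell, NDUFAF8 (74 aa) at −1.24, and 1 rose, ACAD9 (621 aa) at 1.04.

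Import components were called in both directions. Of the 6 small TIM chaperones, which escort carrier proteins across the intermembrane space, TIMM8B (−1.05) and TIMM10 (−0.86) fell. Of 8 TOM subunits, which form the entry gate, TOMM7 (55 aa) at −1.15 and TOMM5 (51 aa) at −1.06 fell, and TOMM70 (608 aa) had a value of 0.42 that was not called. Of 16 genes of the inner-membrane translocases and import motor 3 rose, AGK (1.47), HSPA9 (1.43) and TIMM44 (1.38), and 1 fell, ROMO1 (79 aa) at −1.098. Among 22 processing peptidases, proteases and chaperones 9 rose and 0 fell (median 0.90), with PMPCB, the catalytic subunit of the matrix processing peptidase, at 1.62 and PITRM1, a presequence protease, at 1.59.

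Matrix enzymes made up much of the higher group. Of 24 TCA cycle and pyruvate enzymes tested 17 rose and 0 fell, with a median of 1.15. The median enrichment of this list was 1.27 and 1.58 in AKAP1 null and 0.28 and 0.26 in LARP4 null. They included SUCLG2 (1.73), a succinyl-CoA ligase subunit, GOT2 (1.68), the aspartate aminotransferase, and DLD (1.65), the dihydrolipoyl dehydrogenase shared by the α-ketoacid complexes. Without the first AKAP1 null lysate 7 of the list rose, and without the first and the second LARP4 null lysate 21 and 20 did. DLD was strongly enriched in both lines, at 3.69 and 4.03 in AKAP1 null and at 2.16 and 2.27 in LARP4 null.

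Fatty acid oxidation enzymes rose in 10 of 21 cases (median 0.98), including ACAT1 (1.76), HADHB (1.63) and ETFDH (1.49). Of 16 enzymes of branched-chain amino acid and propionate breakdown 7 rose (median 1.05), with PCCB at 1.68 and ALDH6A1 at 1.57. BCKDHA had a value of 1.80 that was not called (adjusted p = 0.0564, edgeR), with a mean of 65.5 reads in the total inputs and 1.02 and 1.71 in the LARP4 null lysates. One-carbon, proline and aldehyde enzymes rose in 10 of 18 cases and had the highest median of the enzyme lists, 1.37. ALDH18A1, which makes the proline precursor, stood at 3.001 and 3.324 in AKAP1 null and at 1.731 and 1.543 in LARP4 null (1.53 ± 0.17). The inner-membrane dehydrogenases that feed quinone rose in 3 of 6 cases, with GPD2 at 1.71. No member of these 4 lists fell. ETFDH is in both the fatty acid and the quinone lists, and DLD in both the TCA and the one-carbon lists, so the counts share genes.

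Genes of mitochondrial gene expression were called mostly as higher. Of 17 mitochondrial aminoacyl-tRNA synthetases 8 rose and 0 fell (median 1.12), with IARS2 (1.76), YARS2 (1.73) and TARS2 (1.56) after LARS2. Of 14 translation factors 6 rose and 0 fell (median 0.44), with the elongation factors GFM1 (1.69) and TUFM (1.41). Of 32 genes of mtDNA and mtRNA metabolism 9 rose and 1 fell (median 0.53). PTCD3 (1.69), ELAC2 (1.596) and FASTKD2 (1.498) are RNA-binding or RNA-processing proteins of 689 to 826 aa. SLIRP, which fell by 1.01, encodes 109 aa. The 77 mitochondrial ribosomal proteins had a median of −0.12, with 3 higher and 4 lower. MRPS30 (439 aa), MRPS27 (414 aa) and MRPS22 (360 aa) were the 3 that rose, at 1.27, 1.07 and 1.03, and MRPL51 (128 aa) and MRPL33 (65 aa) were among those that fell, at −1.22 and −1.20. Of 16 iron-sulfur cluster genes 2 rose and 1 fell (median −0.19), with NFS1 (457 aa) at 0.82 and BOLA3 (107 aa) at −1.12.

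**Figure D4:**
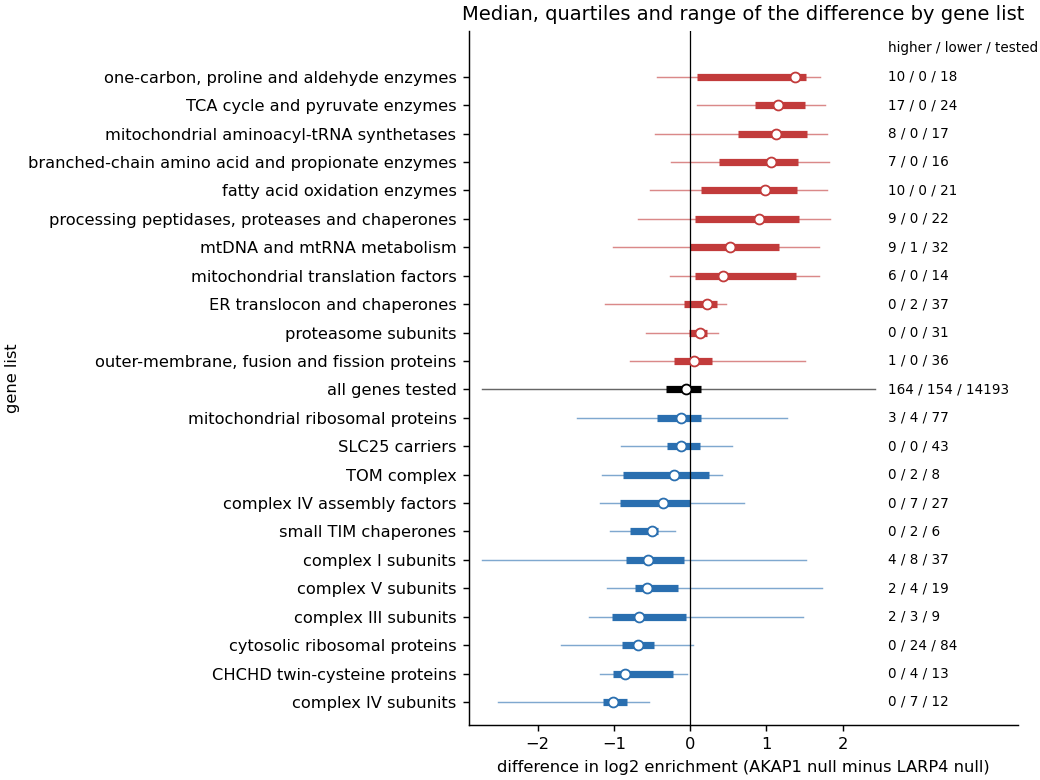
Difference in log2 enrichment (x axis) for gene lists (y axis), with the median as an open point, quartiles as a thick bar and the whole range as a thin line (red, median above 0; blue, below 0). The numbers at the right count members higher and lower in AKAP1 null and members tested; medians run from −1.01 for complex IV subunits to 1.37 for one-carbon, proline and aldehyde enzymes, and all genes tested lie at −0.05.

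Long genes rose and short genes fell within several compartments of the organelle. Among genes assigned to the matrix, 69 of 146 over 400 aa rose (median 0.93) and 5 of 59 under 200 aa fell (median −0.32). Among inner-membrane genes 26 of 58 over 400 aa rose (median 1.00) and 24 of 71 under 200 aa fell (median −0.70). In the intermembrane space 2 of 12 long genes rose and 3 of 16 short ones fell. Long outer-membrane genes had a median of 0.24, and 2 of 20 rose and 1, AKAP1 itself, fell, while 2 of 16 short ones fell (median −0.43). Without the first AKAP1 null lysate 41 long matrix and 16 long inner-membrane genes rose and 1 short inner-membrane gene fell. In the separate list of outer-membrane, fusion and fission proteins 1 of 36 rose, ARMCX3 (379 aa, 1.5), and 0 fell. In the SLC25 family of mitochondrial carriers 0 of 43 were called (median −0.125, range −0.91 to 0.54). With 2.24% of all genes tested called, a count of 0 does not set this family apart. The count also changed when the first LARP4 null lysate was left out. No gene of the 4 compartments that encodes under 200 aa rose. With 1.16% of all genes tested called higher and bins of 16 to 71 genes, these counts of 0 do not set them apart.

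Ribosome footprints from cells without a knockout gave an independent measure of which mRNAs are translated at the OMM. These libraries did not enter the comparison. Locally translated genes are here mitochondrial genes with a log2 footprint enrichment above 1.5 in the first replicate of the mitochondrial ligase, with at least 64 footprints in the total. Of 31 such genes under 200 aa, 19 fell and 0 rose, with a median of −0.99 and a highest value of −0.54. Of 50 such genes over 400 aa, 41 rose and 1 fell, with a median of 1.44. The one that fell was AKAP1 (−1.41 ± 0.21, adjusted p = 0.0211, edgeR), whose mRNA was itself lower in AKAP1 null. The 12 short genes that were not called had values of −0.97 to −0.54, and the 8 long genes that were not called had values of 0.85 to 1.31, so all of them lay on the side of their group. The short list had a median enrichment of 0.46 and 0.32 in AKAP1 null and of 1.48 and 1.16 in LARP4 null. The long list had 2.19 and 2.73 in AKAP1 null and 0.93 and 1.11 in LARP4 null. The counts fell to 1 short and 32 long genes without the first AKAP1 null lysate and to 0 and 0 without the second, and were 31 and 48 without the first LARP4 null lysate and 31 and 49 without the second.

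Genes under that footprint threshold are given beside them, and the difference between the groups was not tested. Of 142 mitochondrial genes under 200 aa that were measured and not above 1.5, 18 fell (median −0.42), and of 204 over 400 aa 62 rose (median 0.53). Across mitochondrial genes under 200 aa the difference correlated with footprint enrichment at r = −0.67 (rho −0.70, n = 173 genes), and across those over 400 aa at r = 0.64 (rho 0.69, n = 254). Across other protein-coding genes under 200 aa it was r = −0.63 (rho −0.64, n = 715), and across those over 400 aa r = 0.09 (rho 0.08, n = 3916). These are descriptions across genes. RNA-seq and footprint libraries came from different cells but share the tagged ribosome and the ligase.

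**Figure D5:**
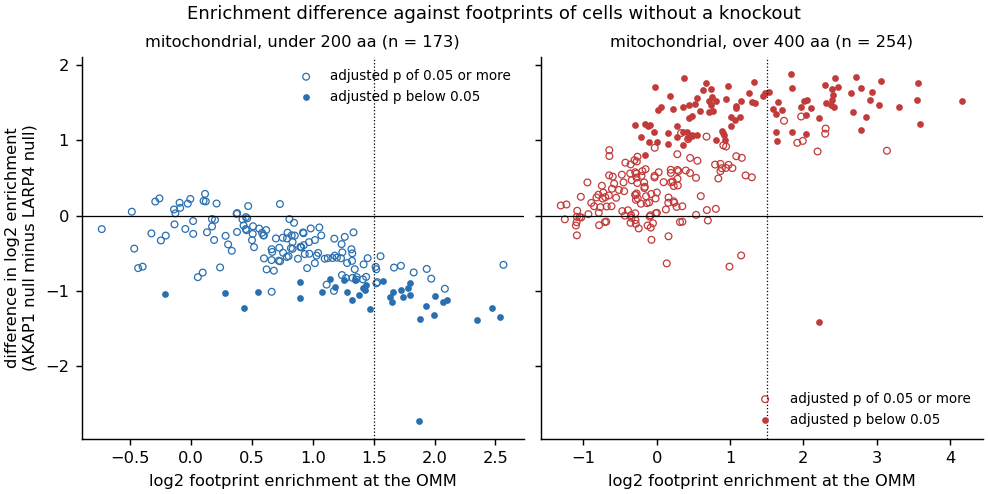
Difference in log2 enrichment (y axis) against log2 footprint enrichment at the OMM in cells without a knockout (x axis), for mitochondrial genes under 200 aa (left, 173 genes) and over 400 aa (right, 254 genes). Filled points have an adjusted p below 0.05 and the dotted line marks 1.5; differences become more negative along the x axis on the left (r = −0.67) and more positive on the right (r = 0.64), and the low filled point on the right is AKAP1 at −1.41.

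Short coding sequences outside the mitochondrial list took part as well. Of 84 cytosolic ribosomal protein genes 24 fell and 0 rose, with a median of −0.69. The list had a median enrichment of 0.25 and 0.12 in AKAP1 null and of 0.96 and 0.71 in LARP4 null. Without the first AKAP1 null lysate 2 fell, and without the first and the second LARP4 null lysate 60 and 68 did. Of 61 genes outside the mitochondrial list that encode under 200 aa and passed the footprint threshold, 32 fell and 0 rose (median −0.98). MTLN, whose product is mitochondrial, is among them because the list leaves it out. So are RPL23A and RPS29 of the ribosomal protein list and OST4 of the next list, so these counts share genes. At the endoplasmic reticulum (ER), OST4 (37 aa), a subunit of oligosaccharyltransferase, and SEC61B (96 aa), of the translocon, fell by 1.12 and 0.97. They were the only 2 called among the 37 ER translocon and chaperone genes, of which 26 lay above 0 and 11 below (median 0.22). Over all genes tested 1.16% rose, so a count of 0 rises in this list does not set it apart. Over 1248 genes enriched at the ER in footprints the median was 0.16, and 2 fell and 1 rose. These lists mark the neighbouring membrane. The counts changed with the lysates kept, and in the footprint list 280 rose and 60 fell without the first LARP4 null lysate, against 44 and 44 without the second.

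Lists from other cellular functions were read against the 2.24% of all genes that were called. None of 31 proteasome subunits (median 0.12), 17 glycolytic enzymes (0.18), 56 histones (−0.03), 51 RAB GTPases (0.07) or 25 stress-response genes (−0.29) was called. With lists of this size, counts of 0 do not set them apart from all genes. Without the first LARP4 null lysate 4 proteasome and 4 glycolytic genes rose and 7 stress-response genes fell. HK1, a hexokinase that binds the outer membrane, had the largest value among glycolytic enzymes (1.09, adjusted p = 0.0525, edgeR). Of 34 cytosolic translation factors 1 fell, the scaffold EIF4G1, a 1599 aa protein, at −0.92 ± 0.13. Of 414 zinc-finger genes 1 fell, ZNF511 (−1.15). Of 180 solute carriers outside SLC25 1 rose, SLC30A9 (1.07), which is in the mitochondrial list as an inner-membrane gene of 568 aa. Among 53 genes picked by symbol as integrins, collagens, laminins and cadherins 1 fell, ITGB1BP1 (−0.80). It encodes an integrin-binding protein and not an integrin. Of 20 targeted genes and RNA-binding partners AKAP1 and PRKAR2A, a regulatory subunit of protein kinase A, fell, the latter by 0.84. LARP4 had a difference of 0.65 ± 0.16 that was not called (adjusted p = 0.109, edgeR).

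Levels in the total inputs were compared on their own as well. The edgeR quasi-likelihood test called 0 genes in either direction (0.0%), with 593 genes (4.18%) at an unadjusted p below 0.05, and DESeq2 called 22 higher and 10 lower in AKAP1 null. The genes with higher OMM enrichment in AKAP1 null had a median total input difference of −0.14, and those with lower enrichment 0.11. These genes were chosen on a ratio whose denominator is this level, so the medians are a description. Of the called genes 19 of 164 and 5 of 154 differed by more than 0.5 in total input. A total input that is lower raises the ratio, and the part of these shifts in the enrichment difference was not tested. The long locally translated list had a median total input difference of −0.22 and the short one 0.14.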

How the data were processed

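RNA-seq libraries were made from total input and streptavidin pulldown RNA with ribosomal RNA removal, per the study's methods (the labels give polyA RNA). The authors aligned reads to GRCh38 with STAR and deposited raw counts per gene from featureCounts. Strand use is not given in the sources used here. Genes of the mitochondrial genome are listed at 0 reads. Footprint files hold the authors' expected counts and deposited RPKM per coding sequence, and log2 RPKM ratios (at least 64 footprints in total input) defined locally translated genes. Deposited FPKM columns were not used. The ANK2 entry (ENSG00000145362), broken over 3 to 7 lines in each count file, was left out.

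Enrichment differences were fitted with edgeR 4.0.16 (R 4.3.3) on the 8 libraries, with a term per lysate, a pulldown effect per line and library totals as scale (2 residual degrees of freedom). Adjusted p-values (Benjamini-Hochberg, below 0.05) run over 14193 genes. Per-lysate values add 0.5 counts. Pulldown and total input of a lysate are paired by design, and their deviations between lysates correlated at 0.67 (AKAP1 null) and 0.71 (LARP4 null). Total inputs were fitted alone with TMM factors. On simulated counts for the enrichment difference over 14193 genes, a log2 change of 1 was recovered for 50.0% of 200 changed genes (13 calls without change), and a change of 0.5 for 2.50%. The simulation drew each library independently and gave both lines the same spread, unlike the lysates here. Lengths, exons and coordinates come from GENCODE canonical transcripts.

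Named genes are the targeted genes, the 10 largest called rises and falls of one sign in all 4 pairings, up to 4 members of each list with the largest absolute difference, called members against the majority of their list, the 5 largest total input changes each way, and NDUFB9, COX6A1 and ALDH18A1. The genes called outside the mitochondrial list, the lncRNAs and PRKAR2B, and the 2 and 0.1 CPM limits for genes on in one lysate only, were chosen after values were seen. The members and lists were chosen with earlier results of these data known. Mitochondrial gene names and compartments come from the study's supplementary lists (1056 genes). Alternatives were TMM, protein-coding totals (chosen after seeing the data), DESeq2 1.42.0, other read minimums, other blocks, a 12-library fit with wild type, each lysate left out, and other footprint lists. Some genes that meet the naming rule are not reported here.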

Additional observations from a re-analysis of the deposited data

Results flagged for a closer look

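Of the 10 largest falls, 7 had both AKAP1 null lysates below 0 and both LARP4 null lysates above 0. Several AKAP1 null values lay close to 0, a level that the library scaling sets. Only the difference between the lines was tested, by the contrast of the fit (edgeR quasi-likelihood, adjusted p of 0.011 to 0.0282). The differences were −1.78 for MT2A, −1.69 for RPL41, −1.69 for RPS21, −1.56 for COPS9, −1.56 for RPS29, −1.50 for MTLN and −1.47 for RPL23A. None of the 10 largest rises had lines on opposite sides of 0. RPS29 stood at −0.82 and −0.72 in AKAP1 null, and MT2A stood at 1.71 and 1.51 in LARP4 null.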

How the results depend on the processing

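The 20 largest differences kept their direction under every alternative in which they were tested, and called counts moved. The higher and lower counts, 164 and 154 as reported, were about 2.6e+02 and 492 with no read minimum and 0 and 1 with no replicate block for the lysate, which pairs pulldown with total input. The lower count was 316 with DESeq2 and 406 in the 12-library fit. Leaving out 1 lysate gave 0 to 853 higher and 0 to 2978 lower. A replicate block across lines gave 189 and 211. The deviations of same-numbered lysates correlated at 0.01 between lines, and the labels do not say what the replicate number marks. In total inputs DESeq2 gave 22 and 10, no read minimum 108 and 192, and leaving out 1 library 0 to 9 and 0 to 17; a replicate block gave 0 and 0. The medians of the short and long locally translated genes stayed between −1.15 and −0.84 and between 1.21 and 1.69 under all alternatives run. Signs reversed for some uncalled values when 1 lysate was left out. The enrichment differences then ranged from −0.386 to 0.029 for SDHC, −1.571 to 0.915 for PSMA2 and −0.979 to 0.083 for H2BC6 (0.062 without the first AKAP1 null lysate), and the total input differences from −8.558 to 0.114 for PGR, −7.913 to 2.829 for PTCHD1, −7.096 to 2.231 for DOK6 and −0.355 to 5.019 for TSSC2. The cause was not tested. With 2 lysates a line, a log2 change of 0.5 was mostly not recovered in simulated counts. Where 1 lysate of a line was left out, the remaining one was taken to vary like those of the other line.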

Other observations

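Only 9 genes outside the mitochondrial list were higher in AKAP1 null. They were HSPD1P1, the lncRNA ENSG00000263272, and 7 protein-coding genes, CABYR (1.14), CYP27C1 (1.48), NRIP1 (1.44), PPM1G (1.14), RSPRY1 (1.13), SCAF8 (0.81) and UBE4A (0.92). These genes, and those of the next paragraphs, were named after their values were seen. PPM1G, a nuclear protein phosphatase, stood at 1.89 and 2.17 in AKAP1 null and at 0.94 and 0.83 in LARP4 null. NRIP1, a nuclear receptor corepressor, had a footprint enrichment of 3.23 at the OMM in cells without a knockout.

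The 5 genes over 400 aa that were lower in AKAP1 null included AKAP1, EIF4G1, and PRKAR2A (−0.84) and PRKAR2B (−1.03), the type II regulatory subunits of protein kinase A whose proteins bind A-kinase anchoring proteins. PRKAR2B stood at −0.20 and −0.16 in AKAP1 null and at 0.98 and 0.72 in LARP4 null. PRKAR2A stood at −0.61 and −0.53 against 0.28 and 0.25.

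Of 1318 lncRNAs tested 12 were lower (0.91%, against 1.09% of all genes) and 1 was higher. Their median difference was −0.505, against −0.054 over all genes tested, and 1177 lay below 0 and 141 above. The median enrichment of the lncRNAs was −0.57 and −0.62 in the AKAP1 null lysates and −0.44 and 0.20 in the LARP4 null lysates. The cause of this shift was not tested. Without the first LARP4 null lysate 657 were lower and 5 higher, and without the second 87 and 16. Among the 12 were SNHG5 (−1.22), SNHG8 (−1.21), SNHG6 (−0.98), SNHG15 (−0.87), SNHG29 (−0.82) and ZFAS1 (−0.90). SNHG5 stood below 0 in both lines, at −1.86 and −1.78 in AKAP1 null and at −0.71 and −0.48 in LARP4 null.

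The 5 largest falls in total input were in PGR, PTPRD, PTCHD1, BCHE and DOK6 and the 5 largest rises in RPS2P28, TSSC2, LINC01036, PRKCB and LINC00665, none of them called (adjusted p = 0.932, edgeR). Most of them differed strongly between the lysates of a line. PGR was listed at 9.28 CPM in the first LARP4 null total input and at 0.0198 CPM in the second, and BCHE at 0.0834 and 3.61 CPM. These genes were chosen by the size of their change.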
